A study of Heterocephalus glaber with 3 samples.

Results

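Chaperones and protein folding genes were followed across the cell classes of naked mole-rat (Heterocephalus glaber) lung tumours, with the members that work in the endoplasmic reticulum (ER) set beside those of the cytosol. Members were every gene whose symbol in the deposited feature list, case ignored, belongs to the small heat shock, HSP60, HSP70, HSP90 or HSP110 families (symbols that begin with HSPA, HSPB, HSPD, HSPE or HSPH and a number, or with HSP90), the J proteins (DNAJA, DNAJB or DNAJC and a number), the CCT chaperonin subunits or the numbered protein disulfide isomerases (PDIA). This rule found 61 of 23189 features, 11578 of which carry a symbol. By textbook location 29 of the 61 were cytosolic, 9 were in the ER lumen, 5 in the ER membrane, 7 in the mitochondrion and 11 elsewhere. HSPBAP1 was caught by its symbol and is a partner of HSPB1, not a chaperone itself.

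The 3 animals, 1 library each, formed 1 group: they had received an adenovirus carrying CRISPR reagents, with edits that include an Eml4-alk inversion and loss of Rb, and lungs were taken 15 weeks after infection. Tumours were separated by hand from the rest of the lung, dissociated and captured with 10x Genomics 3′ chemistry, which counts 1 transcript end per unique molecular identifier (UMI). The animals carry replicate numbers 1 to 3 in the labels, which give neither the cells the virus reached nor their age, and no untreated animal was used here. All comparisons are therefore between cell classes of the same 3 animals.

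Most secreted and surface proteins fold in the ER lumen. There the HSP70 protein HSPA5 (BiP) binds unfolded chains with the help of J proteins, the HSP90 protein HSP90B1 (GRP94) finishes a set of clients that includes immunoglobulin chains and receptors, and PDIA enzymes form and shuffle disulfide bonds. In the cytosol, HSP70 and its J proteins, the HSP90 pair HSP90AA1 and HSP90AB1, and the ring-shaped CCT complex, which folds actin and tubulin, serve newly made cytosolic proteins, and heat shock factor raises many of them under stress. Plasma cells make antibody in bulk and are known for an enlarged ER maintained by XBP1. Roles given below are known from human and mouse cells.

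The 3 libraries held 76093932, 86575320 and 91949365 UMIs in 9500, 10000 and 10000 barcodes, and 7929, 8891 and 7779 cells passed the filters on UMIs, genes, mitochondrial share and doublet score. Pairs of libraries shared 24, 21 and 31 barcodes, with equal UMI totals in 0 of them. Clustering, which used none of the members, gave 36 clusters, and marker genes placed all but 11 of them in 10 classes present in every animal. Each class is called X-like, since the names rest on markers, 90 of 141 of which were measured. The plasma-like class held 736, 367 and 1285 cells in replicates 1, 2 and 3, with median UMIs of 15508, 17073 and 12571 per cell. The B-like class held 535, 718 and 69 cells with median UMIs of 1736, 1930.5 and 2693, so the classes differed in depth per cell. An ALK-high fibroblast-like class (723, 319 and 575 cells) was split off from the fibroblast- or mural-like class (359, 453 and 431 cells) because its clusters had at least 5 CPM of ALK, CPM being counts scaled to a fixed total per library. ALK stood at 15.7 CPM in its larger cluster and 10.5 CPM in its smaller. The smaller, led by MMP3, held 342, 9 and 61 cells, so the mix differed by animal. The epithelial-like cluster led by SCGB3A2 had 15.1 CPM of ALK, but the split covered fibroblast-like clusters only. Counts were summed per class and animal, which gave 30 summed libraries, and 50 of the 61 members passed the filter on low counts: 21 cytosolic, 8 ER lumen, 4 ER membrane, 7 mitochondrial and 10 others.

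Markers set the class names, so their levels are given as a description and check nothing. TNFRSF17, the BCMA receptor of plasma cells, stood at 266, 187.8 and 291.7 CPM in the plasma-like class, against 24.3, 13.1 and 23.0 CPM in the B-like class. POU2AF1, which both stages use, stood at 120, 87.3 and 107.5 CPM in plasma-like cells and 60.7, 65.4 and 36.1 CPM in B-like cells. The 7 measured B cell markers summed to 551, 413 and 805 CPM in the plasma-like class, against 1486, 1492 and 908 CPM in the B-like class. Levels are CPM on library sizes scaled by the trimmed mean of M values (TMM). In the plasma-like class this scaling matters: 5 features held 65.6%, 60.5% and 71.3% of its UMIs, with IGKC, the immunoglobulin kappa constant gene, alone at 37.8%, 32.4% and 42.6%. With plain library totals the median of all 12506 tested features would shift by -1.71 on the log2 scale in the plasma-like class against the other classes, and by -1.74 against B. Fold changes below rest on the TMM-scaled totals and are not centred on the median feature. The median over all tested features was 0.02 for plasma-like and -0.55 for neutrophil-like cells, each against the other classes. A ratio of members within 1 summed library needs no scaling.

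Of the summed member counts, the ER lumen held more than the cytosol in the plasma-like class and in no other. The sums hold only the 29 cytosolic and 9 ER lumen members found. HSPA8 and HSPA1A of the cytosol and PDIA3, DNAJB11 and DNAJC10 of the ER lumen are not among them. Whether a ratio passes 1 therefore depends on which members were found. Per animal, the ER lumen sum divided by the cytosolic sum was 2.98, 2.29 and 2.07 in plasma-like cells, against 0.167, 0.144 and 0.199 in B-like cells. All 3 plasma-like values were above 1, and the other 27 class and animal sums were all below 1. On the log2 scale the ratio averaged 1.27 ± 0.27 in the plasma-like class (SD, n = 3 animals, as for the other classes). It averaged -1.001 ± 0.15 in the monocyte- or macrophage-like class, -1.02 ± 0.18 in the fibroblast- or mural-like class, -1.25 ± 0.21 in the endothelial-like class and -1.39 ± 0.14 in the ALK-high fibroblast-like class. It was -1.47 ± 0.66 in the neutrophil-like class, -1.62 ± 0.24 in the epithelial-like class, -2.17 ± 0.21 in the dendritic-like class, -2.46 ± 0.22 in the T- or NK-like class and -2.57 ± 0.23 in the B-like class. Neighbours in this order overlapped: the monocyte- or macrophage-like and fibroblast- or mural-like means lie within 1 SD of each other, as do those of the T- or NK-like and B-like classes.

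The ER lumen members summed to 11267, 9854 and 8969 CPM in the plasma-like class, against 891, 989 and 1134 CPM in the B-like class. The next highest class, monocyte- or macrophage-like, averaged 2533 ± 104 CPM, and the fibroblast- or mural-like and ALK-high fibroblast-like classes averaged 2236 ± 221 and 2135 ± 164 CPM (SD, n = 3 each). The cytosolic members summed to 3776, 4312 and 4325 CPM in the plasma-like class, against 5325, 6842 and 5704 CPM in the B-like class. Every plasma-like cytosolic sum was below every B-like one. Cytosolic sums were highest in the T- or NK-like class at 6600.5 ± 546 CPM, within 1 SD of the B-like class, and lowest in the neutrophil-like class at 2823 ± 287 CPM, a narrower spread than that of the ER lumen. HSP90B1 contributed 45.9% of all ER lumen member counts and HSP90AB1 39.4% of the cytosolic ones. With both left out the plasma-like log2 ratio was 0.87, still the only one above 0.

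**Figure D1:**
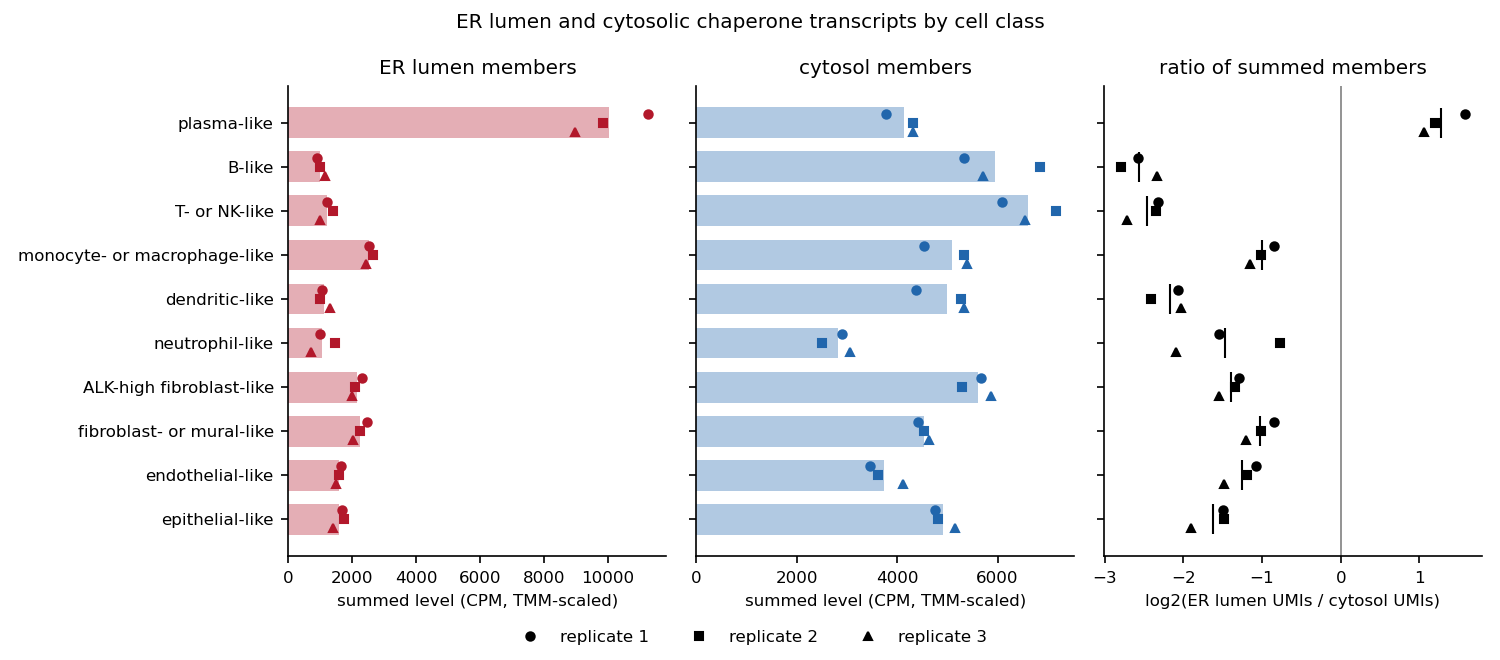
Summed member levels by cell class. The left and middle panels give the summed CPM (TMM-scaled, from 0) of the ER lumen and cytosolic members, with bars for the mean of 3 animals and points for the animals; the right panel gives the log2 of their ratio per animal, with a tick at the mean. The plasma-like class has the highest ER lumen sums (8969 to 11267 CPM) and the 3 ratios above 0.

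Every tested ER lumen member was higher in the plasma-like class than in the average of the other 9 classes, 8 of 8, with a median log2 fold change of 2.70. Of the 50 tested members 24 were higher and 5 lower in the plasma-like class by edgeR's quasi-likelihood test at a Benjamini-Hochberg adjusted p of 0.05, and 25.6% of all tested features were higher and 18.6% lower. The p-values compare classes that were drawn from the same counts, so they describe separation between classes, not a test of independent groups. In these 8 genes each plasma-like sum was above all 27 sums of the other classes, which held for 3.97% of all tested features and for 0 of 21 cytosolic members. Without the neutrophil-like class, without any single animal and in 14 of 15 alternatives in all, the 8 stayed higher. The exception was the plain library total, with 6 higher, DNAJC1 lower and HSPA5 at 0.23 (adjusted p 0.146, edgeR).

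HSP90B1, the ER HSP90, had 6180.1, 5623 and 4344 CPM in plasma-like cells, against 250.2, 329.6 and 357 CPM in B-like cells. The highest sum in any other class was 1192 CPM, in monocyte- or macrophage-like cells of replicate 2. The log2 fold change against the other classes was 3.16 (SE 0.12), with an adjusted p of 1e-19 (edgeR). HSPA5 had 1382, 1388 and 1157 CPM in plasma-like cells, against 259.9, 331 and 259 CPM in B-like cells, and its highest value elsewhere was 658 CPM, again in monocyte- or macrophage-like cells of replicate 2. Its log2 fold change of 1.96 (SE 0.11) was smaller than that of HSP90B1.

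Both disulfide isomerases tested followed. PDIA6 had 1762, 1342 and 1768 CPM in plasma-like cells, against 170.1, 151 and 315 CPM in B-like cells (log2 fold change 2.69, SE 0.11 against the other classes). PDIA4 had 514, 442 and 412 CPM in plasma-like cells, against 24.3, 41.8 and 59.0 CPM in B-like cells (2.97, SE 0.11). The highest sums outside the plasma-like class were 493 CPM for PDIA6 and 128 CPM for PDIA4, both in monocyte- or macrophage-like cells. PDIA2, a disulfide isomerase known best from pancreas, did not pass the filter on low counts. It had 4.86, 13.2 and 12.8 CPM and 110 UMIs in the plasma-like class, against 0 UMIs in the 3 B-like libraries. All 110 UMIs came from the larger plasma-like cluster, and the smaller had 0. Taking 3 counts over the B-like libraries as the limit of detection, PDIA2 was at least 11.6-fold higher in the plasma-like class as a whole. The highest PDIA2 value in another class was 0.371 CPM. Intervals and limits of this kind cover counting error only.

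The J proteins and the HSP70 relative of the lumen moved the same way. DNAJB9, which steers misfolded chains from HSPA5 to degradation and is a target of XBP1, had 580.4, 379.7 and 563 CPM in plasma-like cells, against 69.6, 45.5 and 59.0 CPM in B-like cells. DNAJC3, another lumenal J protein that feeds HSPA5, had 551, 436 and 452 CPM in plasma-like cells and 46.2, 33.0 and 59.0 CPM in B-like cells. The highest sum in the other named classes was 117 CPM for DNAJB9, in neutrophil-like cells of replicate 3. For DNAJC3 it was 138 CPM, in monocyte- or macrophage-like cells of replicate 1. Outside the named classes, DNAJB9 stood at 240 CPM in the cluster led by CSF3R and CXCR2. On that scale, with dominant features left out of the totals, the smaller plasma-like cluster had 401, 289 and 338 CPM. Against the other classes the log2 fold changes were 2.92 (SE 0.09) for DNAJB9 and 2.49 (SE 0.09) for DNAJC3. HSPA13, a microsomal HSP70 without a substrate-binding domain, had 125, 72.2 and 106 CPM in plasma-like cells and 21.9, 15.2 and 3.28 CPM in B-like cells (2.70, SE 0.13). DNAJC1, a membrane-anchored J protein that faces the lumen, changed least, with 168, 159 and 154 CPM in plasma-like cells against 48.6, 42.4 and 22.9 CPM in B-like cells (1.30, SE 0.12). ALK-high fibroblast-like cells of replicate 1, at 140 CPM, came closest to its plasma-like range.

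**Figure D2:**
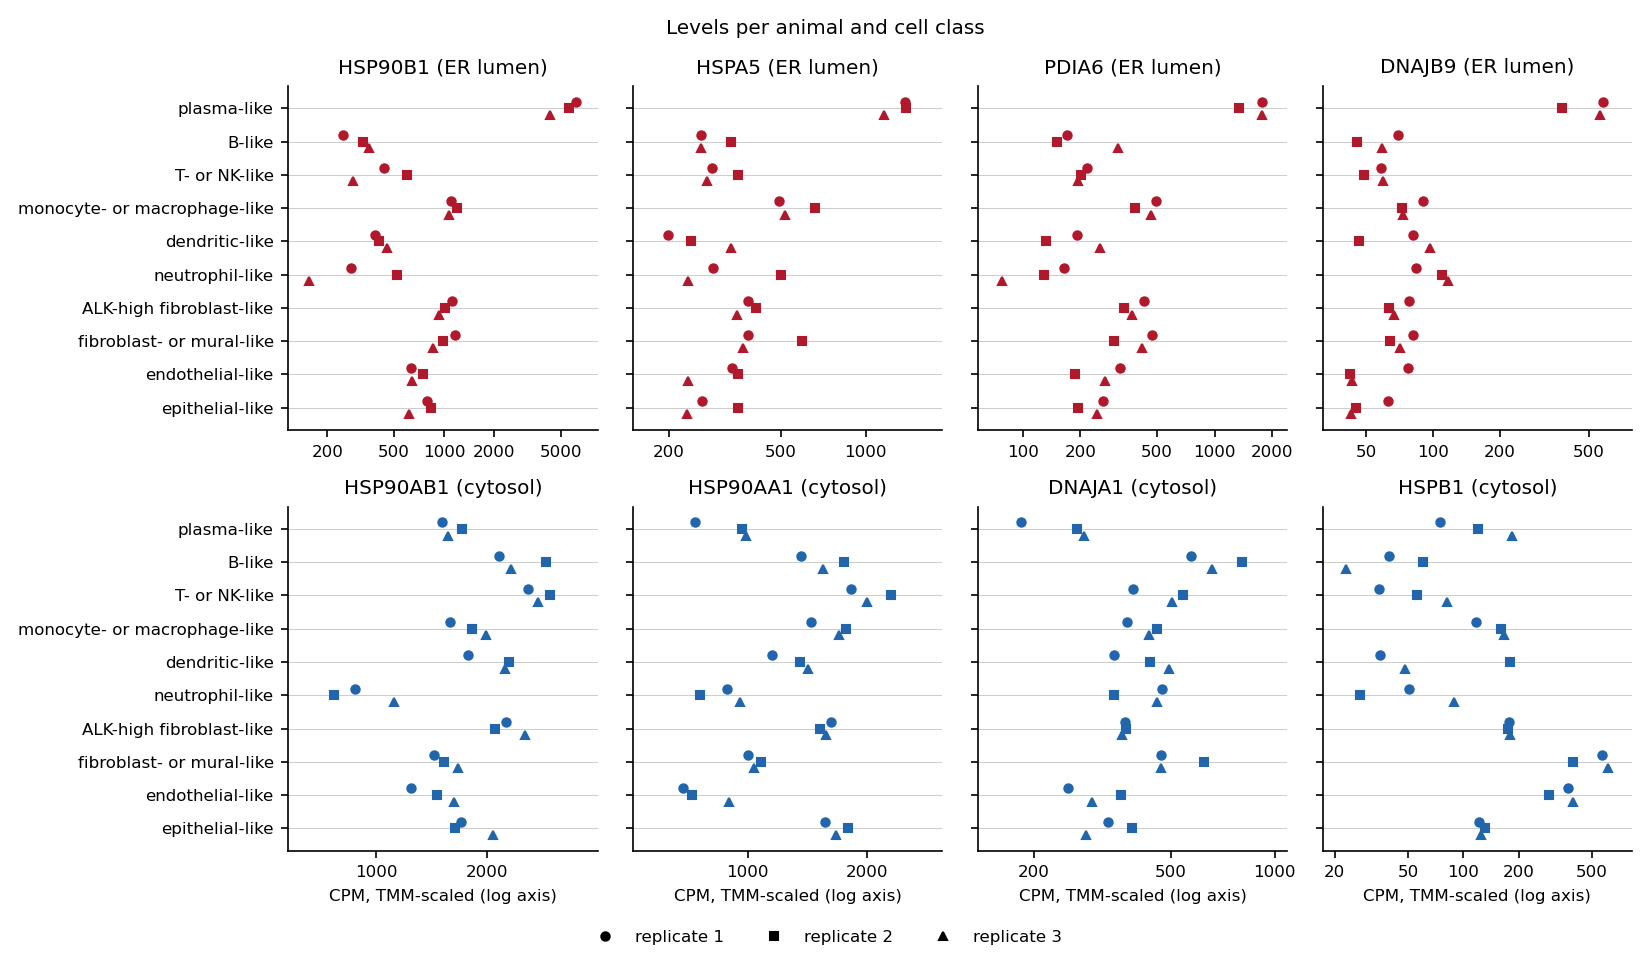
Levels of 4 ER lumen members (top row) and 4 cytosolic members (bottom row) in CPM, TMM-scaled, on log axes that differ between panels, for each cell class, with a point per animal. In the top row the 3 plasma-like points lie above all others; in the bottom row DNAJA1 has low plasma-like points (183 to 279 CPM) and HSPB1 is highest in the fibroblast- or mural-like class.

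Cytosolic members showed no common direction in the plasma-like class: 7 of 21 tested were higher than in the other classes, 2 lower and 12 neither, with a median log2 fold change of 0.11. This split depends on the scaling, being 5 higher and 5 lower with DESeq2, 6 and 5 with the dominant features left out of the totals, and 0 and 17 with plain totals. Over all members the split was 24 to 5, against 22 to 9, 22 to 10 and 6 to 37 under the same settings. Lower were DNAJA1, the main J partner of cytosolic HSP70, with a log2 fold change of -0.82 (SE 0.12) and an adjusted p of 2.2e-06 (edgeR), and HSP90AA1, the stress-inducible cytosolic HSP90, with -0.57 (SE 0.10) and 2e-05. DNAJA1 had 183, 266 and 279 CPM in plasma-like cells, within the range of 251 to 805 CPM of the other classes in 2 of 3 animals and below it in replicate 1. HSP90AB1, the constitutive HSP90, did not pass (-0.19, adjusted p 0.132, edgeR), though it was lower under 8 alternatives, DESeq2 among them.

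Among the cytosolic members that were higher against the other classes, DNAJB2, a J protein that also binds ubiquitin, had a log2 fold change of 1.45 (SE 0.14) and DNAJB1, the heat-inducible J protein, one of 1.12 (SE 0.14). The CCT subunits CCT7 and CCT8 had 0.60 and 0.54, while CCT5 had 0.08 and did not pass. DNAJC7, a J protein with TPR repeats, had 0.67, and HSPA14, the HSP70 of the ribosome-associated complex, 0.30. HSPB6, a small heat shock protein, completes the 7, but the neutrophil-like class had 0 UMIs of it, so only its levels are given: 3.33, 3.02 and 1.83 CPM in plasma-like cells and 0.810, 1.57 and 0 CPM in B-like cells. HSPH1, the HSP110 exchange factor, had 0.14 and the small heat shock protein HSPB1 had -0.03, and neither passed. With plain library totals DNAJB1, CCT7, CCT8, HSPH1 and CCT5 turned lower in the plasma-like class.

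In the remaining compartments the changes were mixed. Of the 7 mitochondrial members 4 were higher in the plasma-like class, DNAJC30 (1.03), DNAJC15 (1.02), a J protein of the import motor, DNAJC4 (0.53) and DNAJA3 (0.52), and DNAJC28 was lower (-1.86). HSPD1, the mitochondrial chaperonin HSP60, had 0.10 and did not pass, and turned to -1.60 with plain totals. Of the 4 ER membrane members only DNAJB12, whose J domain faces the cytosol, was higher (0.78). Elsewhere in the cell DNAJC9, a histone chaperone, had 1.50, DNAJC24, which acts in diphthamide synthesis, 0.91, and the splicing-linked J proteins DNAJC17 and DNAJC8 0.74 and 0.37. DNAJC13, which acts on endosomes, was lower (-0.73), as was HSPBAP1 (-0.79).

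**Figure D3:**
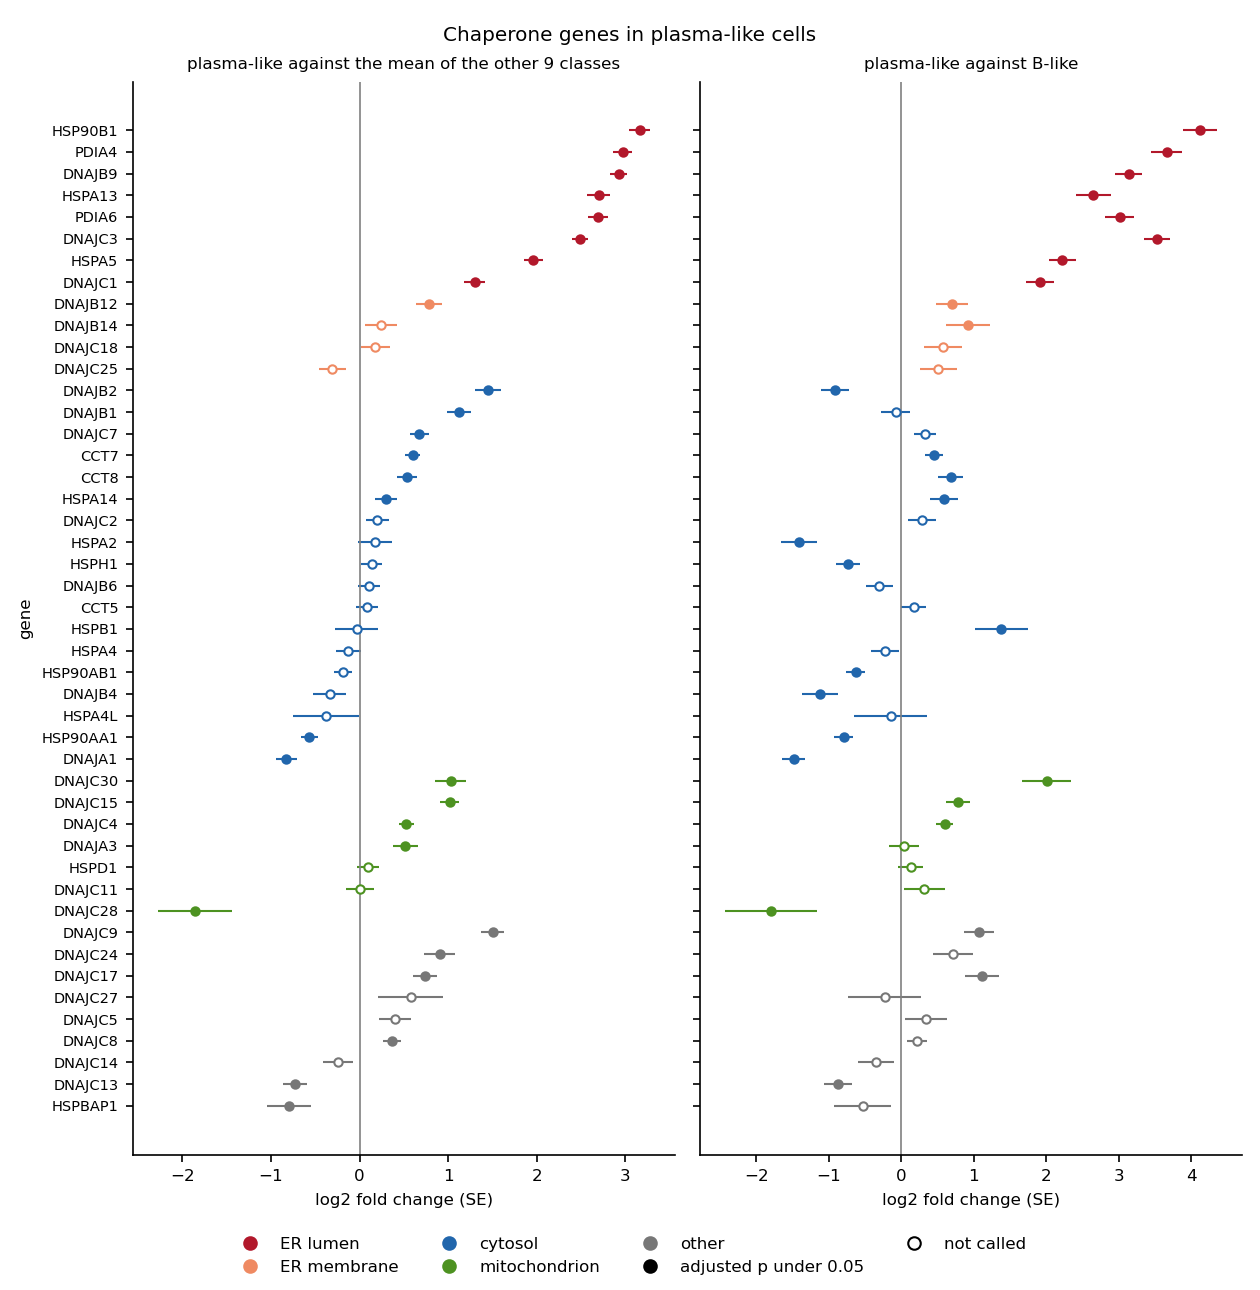
Log2 fold changes of tested members in the plasma-like class against the average of the other 9 classes (left) and against the B-like class (right), with bars of 1 SE and members grouped by compartment. Filled points have an adjusted p under 0.05 (edgeR); the 8 ER lumen members stand together at 1.30 to 3.16 on the left, and the cytosolic members lie on both sides of 0. Members with 0 UMIs in a class are left out.

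Plasma cells arise from B cells, and the same contrast was made between those classes directly. In plasma-like cells 20 members were higher and 9 lower than in B-like cells, where 17.5% of all tested features were higher and 14.2% lower. The split was 20 to 9 with DESeq2 too, 16 to 12 with the dominant features left out of the totals and 6 to 36 with plain totals. All 8 ER lumen members were again higher, with a median log2 fold change of 3.07, in 13 of 14 alternatives, the exception being plain totals with 6 of 8. The log2 fold changes were 4.12 (SE 0.24) for HSP90B1, 3.66 for PDIA4, 3.52 for DNAJC3, 3.13 for DNAJB9, 3.01 for PDIA6, 2.65 for HSPA13, 2.22 for HSPA5 and 1.91 for DNAJC1. This contrast shares the plasma-like libraries with the previous one, so its values are not a second line of support. The B-like class of replicate 3 had 69 cells and an IGKC share of 5.16%, the highest outside the plasma-like class, and the part of free RNA in the contrast was not tested.

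Both cytosolic HSP90 genes and DNAJA1 were lower in plasma-like than in B-like cells. HSP90AB1 had 1509, 1711 and 1564 CPM in plasma-like cells, against 2155, 2892 and 2328 CPM in B-like cells, and HSP90AA1 had 738, 966 and 989 CPM against 1361, 1746 and 1551 CPM. The ranges did not overlap for either gene, and the log2 fold changes were -0.62 (SE 0.13) and -0.80 (SE 0.13). DNAJA1 had 183, 266 and 279 CPM in plasma-like cells, against 570.1, 805 and 659 CPM in B-like cells (-1.49, SE 0.16, adjusted p 1e-08, edgeR). HSPH1 (-0.73), HSPA2 (-1.42), a testis-enriched HSP70, DNAJB4 (-1.12) and DNAJB2 (-0.92) complete the 7 of 21 cytosolic members that were lower. DNAJB2 lost its call without replicate 1 (-0.81, adjusted p 0.0599, edgeR).

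HSPB1, CCT8, CCT7 and HSPA14 were the 4 cytosolic members that were higher than in B-like cells. HSPB1 had 74.4, 120.1 and 183 CPM in plasma-like cells and 39.7, 60.2 and 22.9 CPM in B-like cells (1.38, SE 0.37), and lost its call without replicate 3 (0.88, adjusted p 0.0929, edgeR). CCT8 had 270.1, 221 and 226 CPM in plasma-like cells and 159, 142 and 134 CPM in B-like cells (0.68), CCT7 had 234, 225 and 209.7 CPM and 168, 165 and 154 CPM (0.45), and HSPA14 had 0.59. Neither CCT subunit's ranges overlapped. Without replicate 1 the adjusted p was 0.0659 for CCT8 and 0.159 for CCT7 (edgeR), and with plain totals both CCT subunits turned lower. With those totals HSPB1 changed sign but was not called lower (-0.39, adjusted p 0.32, edgeR). CCT5 (0.17), DNAJB1 (-0.07) and HSPD1 (0.13) did not pass. Over the 21 cytosolic members the median was -0.07, and -0.22 with the members at 0 UMIs in a class set to their limit. Without replicate 1 the cytosolic split was 1 higher and 6 lower, and with the dominant features left out of the totals 1 higher and 9 lower.

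Outside both compartments, DNAJC30 (2.01), DNAJC15 (0.78) and DNAJC4 (0.60) were higher in plasma-like than in B-like cells and DNAJC28 was lower (-1.80), though DNAJC28 rests on few counts (1.53, 0 and 2.28 CPM in plasma-like cells against 4.05, 4.71 and 6.56 CPM in B-like cells) and lost its call without replicate 1 or 2. DNAJB14 (0.92) and DNAJB12 (0.70), both of the ER membrane, were higher, as were DNAJC9 (1.08) and DNAJC17 (1.11), and DNAJC13 was lower (-0.87). DNAJC22 had 22 UMIs in plasma-like and 0 in B-like cells, at least 2.31-fold higher at the limit of 3 counts. DNAJC6, the clathrin-uncoating auxilin, had 18 UMIs in plasma-like and 0 in B-like cells and was not tested.

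Companion genes of the same pathways, taken from lists that hold no member, were counted in the same fit. Of 28 ER folding and export genes 25 were higher and 1 lower in the plasma-like class than in the other classes, with a median of 2.55 beside 0.02 over all tested features. TXNDC5 (5.66) and TXNDC11 (5.16), both thioredoxin-fold proteins of the ER, and the prolyl isomerase FKBP11 (4.47) had the largest changes, and the gene that was lower was SERPINH1 (-1.70), a collagen chaperone of fibroblasts. All 13 tested genes of 15 measured in the unfolded protein response and ER degradation list were higher, with a median of 1.63, led by DERL3 (5.90), Herpud1 (3.74) and SYVN1 (2.81), which act in ER-associated degradation. Against B-like cells 25 of 28 and 12 of 13 of these 2 lists were higher, and 0 lower. Of the 18 cytosolic cochaperones and heat shock factors 3 were higher and 3 lower against the other classes, with a median of 0.01. These companion genes were kept out of the clustering, as the members were.

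Genes of other programmes moved too in the plasma-like class. Of 15 cell cycle genes 11 were higher than in the other classes and 9 higher than in B-like cells. Of 9 immediate early genes that dissociation is known to induce, 2 were higher, JUN (1.46) and ZFP36 (1.41), and 2 lower, EGR1 (-1.54) and IER3 (-1.45). Of 10 genes of mitochondrial folding and import 4 were higher and 0 lower. The part of cell cycle, dissociation and depth per cell in the member values was not tested.

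The plasma-like class joined 2 clusters, which differed in the share of their dominant features, IGKC among them. These held 70.0%, 66.4% and 74.0% of the counts of the larger cluster (617, 288 and 1157 cells) and 47.9%, 42.7% and 51.0% of the smaller (119, 79 and 128 cells). The log2 ratio of ER lumen to cytosolic members was 1.76, 1.36 and 1.09 in the larger cluster and 1.26, 0.96 and 0.92 in the smaller, higher in the larger in each animal. The clusters were drawn from the same cells, so their differences are a description with no test. With dominant features left out of the totals, HSP90B1 stood at 5502, 5729 and 3779 CPM in the larger cluster and 7299, 6997 and 5185 CPM in the smaller, and DNAJB9 at 639, 490 and 573 CPM in the larger against 401, 289 and 338 CPM in the smaller. HSP90B1 was thus lower and DNAJB9 higher in the larger cluster in every animal. HSP90AB1, at 1174, 1544 and 1300 CPM against 2176, 2482 and 2110 CPM, and HSPD1, at 136, 179 and 108 CPM against 245, 412 and 219 CPM, were lower in the larger cluster.

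In the ALK-high fibroblast-like class no ER lumen member was higher than in the fibroblast- or mural-like class, while cytosolic members lay on both sides. Against the fibroblast- or mural-like class 14 members were higher and 8 lower, where 20.2% of all tested features were higher and 20.2% lower. Of 21 cytosolic members 9 were higher and 6 lower, of 7 mitochondrial members 3 were higher, of 8 ER lumen members 0 were higher and 1 lower, and of the 10 others 2 were higher and 1 lower. The cytosolic, mitochondrial and ER lumen medians were 0.33, 0.19 and -0.13, beside -0.02 over all tested features, and without replicate 1 the cytosolic split was 6 to 5. The ER lumen member that was lower, DNAJC3 (-0.43, adjusted p 0.0175, edgeR), lost its call without replicate 1 (adjusted p 0.317), without the animal block (0.0828) and with plain totals (0.149). HSP90B1 had 1121, 1012 and 931 CPM in ALK-high fibroblast-like cells, against 1158, 988 and 859 CPM in fibroblast- or mural-like cells, overlapping ranges with a log2 fold change of 0.03 (SE 0.20). HSPA5 (-0.21), PDIA4 (-0.35), PDIA6 (-0.05) and DNAJB9 (-0.05) did not pass either, though PDIA4 was lower with DESeq2 (-0.48, adjusted p 0.0148).

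The cytosolic members that were higher included both cytosolic HSP90 genes, 3 CCT subunits and, of the HSP110 family, HSPA4 and HSPA4L but not HSPH1. HSPA4, an HSP110-family exchange factor, had 162, 149.8 and 158 CPM in ALK-high fibroblast-like cells, against 85.2, 74.6 and 64.2 CPM in fibroblast- or mural-like cells (1.07, SE 0.17). CCT5 had 171, 155 and 157 CPM in ALK-high cells, against 86.7, 93.6 and 73.1 CPM in fibroblast- or mural-like cells (0.94, SE 0.16), and CCT7 and CCT8 had 0.87 and 0.77, so the 3 CCT subunits among the members were higher. HSP90AA1 had 1615, 1522 and 1578 CPM in ALK-high cells, against 1000.1, 1084 and 1038 CPM (0.60, SE 0.13), and HSP90AB1 had 0.57. No ranges overlapped for HSPA4, CCT5 or HSP90AA1. HSPA4L (0.85), the ribosome-associated DNAJC2 (0.52) and the anti-aggregation J protein DNAJB6 (0.50) complete the 9. In the mitochondrion HSPD1 had 248, 275 and 239.8 CPM in ALK-high cells, against 106, 172 and 125 CPM in fibroblast- or mural-like cells (0.94, SE 0.16), DNAJC11, a cristae protein, had 0.89 and DNAJC4 0.49. DNAJC9 (0.92) and DNAJC24 (0.75) were higher and DNAJC13 lower (-0.51).

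Small heat shock proteins HSPB1 and HSPB8 went the other way. HSPB1 had 176, 174 and 179 CPM in ALK-high fibroblast-like cells, against 568, 393 and 611 CPM in fibroblast- or mural-like cells, with a log2 fold change of -1.57 (SE 0.31) and no overlap. HSPB8, the small heat shock protein that works with BAG3, had 10 UMIs in the ALK-high class and 230 in the fibroblast- or mural-like class, or 0.385, 0.264 and 0.0859 CPM against 33.0, 30.1 and 13.4 CPM (-6.55, SE 0.35). HSPA2 (-1.31), DNAJB1 (-1.14), DNAJA4 (-1.09) and DNAJA1 (-0.49) were the other 4 that were lower, DNAJA4 losing its call without replicate 1 (adjusted p 0.0947) and DNAJA1 without replicate 2 (0.0775) by edgeR, and HSPH1 (0.01, adjusted p 0.967, edgeR) did not pass. Of the cochaperones, STIP1 (0.89), which joins HSP70 to HSP90, the CCT subunit TCP1 (0.82) and NUDC (0.75) were higher and BAG3 was lower (-0.70), 5 higher and 1 lower of 18. Of 28 ER folding and export genes 5 were higher and 2 lower. Of 13 tested genes of the unfolded protein response list 1 was higher and 4 lower, among them DERL3 (-1.86), CREB3L2 (-1.53) and Herpud1 (-1.39).

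Other measures moved with these differences. Of 15 cell cycle genes 13 were higher in the ALK-high class, with a median of 1.98, and of 9 dissociation-stress genes 7 were lower, with a median of -1.52. The 3 measured basal epithelial markers summed to 399, 373.1 and 707.3 CPM in the ALK-high class, against 30.8, 78.6 and 47.2 CPM in the fibroblast- or mural-like class, and the 8 fibroblast markers to 7559, 3308 and 5970 CPM against 7471, 4417 and 7027 CPM. Median UMIs per cell were 19728, 15442 and 15489 in the ALK-high class against 5695, 5521 and 4914. The part of cycle, stress and basal markers was not tested. With cells limited to 5000 to 15000 UMIs in both classes, 7 of 49 members were higher and 8 lower. The share of all tested features called in that range is not given here, so this split has no background to be read against. Median UMIs still differed, at 10496, 10867.5 and 10068 in ALK-high cells against 7252, 7382 and 6993. In that range HSP90AA1 (0.25, adjusted p 0.189), HSP90AB1 (0.25, 0.223) and DNAJC11 (0.47, 0.211) lost their calls by edgeR, while HSPA4 (0.54), CCT5 (0.76), CCT7 (0.57), CCT8 (0.54), HSPD1 (0.54), HSPB1 (-1.75) and DNAJA1 (-1.01) kept theirs.

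**Figure D4:**
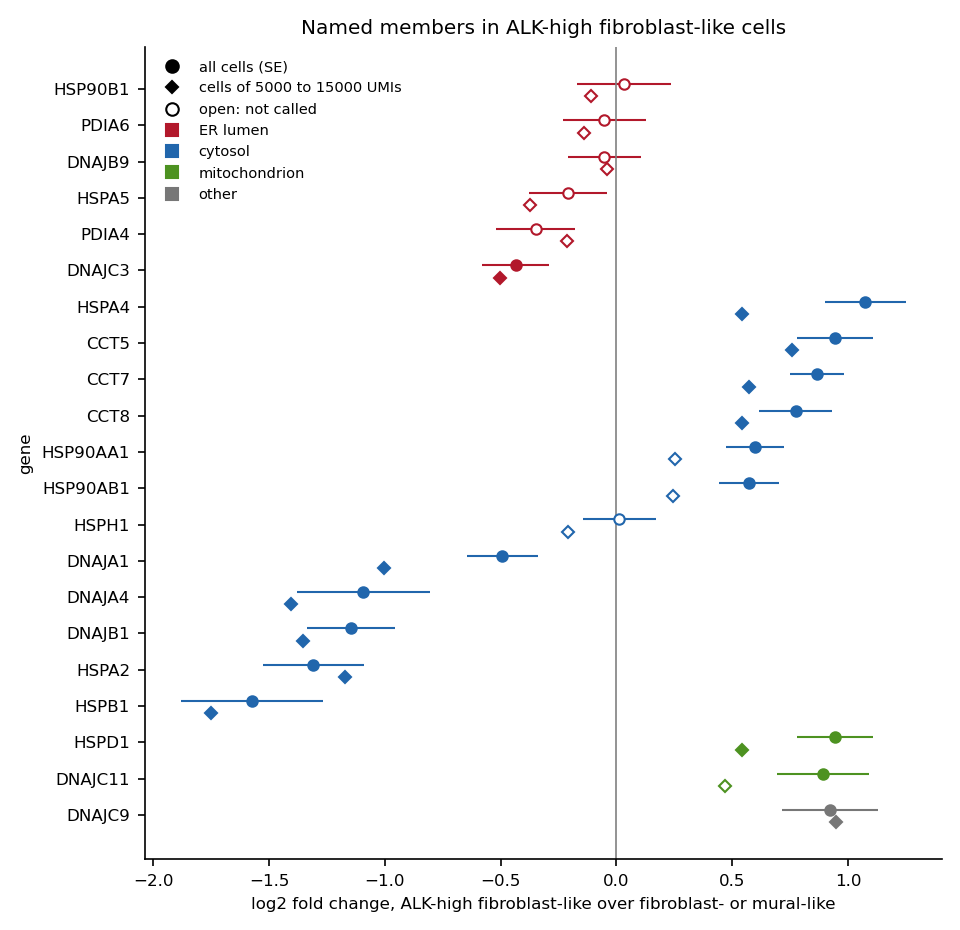
Log2 fold changes of members in the ALK-high fibroblast-like class against the fibroblast- or mural-like class, grouped by compartment. Circles with bars of 1 SE are all cells, filled where the adjusted p is under 0.05 (edgeR), and diamonds are cells with 5000 to 15000 UMIs; ER lumen members lie near 0, the CCT subunits and HSPA4 above it and HSPB1 below it. HSPB8 is left out.

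Across the other lineages, the lymphocyte-like classes were low in ER lumen members and had the highest average cytosolic sums. Other classes came close on both. ER lumen sums averaged 1005 ± 123 CPM in B-like and 1208 ± 209 CPM in T- or NK-like cells (SD, n = 3 each). They averaged 1059 ± 380 CPM in neutrophil-like and 1116 ± 168 CPM in dendritic-like cells. The ALK-high fibroblast-like cytosolic sum, 5603 ± 294 CPM, lay within 1 SD of the B-like 5957 ± 789 CPM. The average of the other classes includes the plasma-like class, which raises the level that each other class is set against in the lumen, so counts without the plasma-like class are given beside each. In the B-like class 9 members were higher and 13 lower (17.7% and 15.4% of all tested features), with 0 higher and 7 lower of the 8 ER lumen members, or 0 and 4 without the plasma-like class, and 9 higher and 2 lower of the 21 cytosolic ones. DNAJB2 (2.47, SE 0.16), HSPA2 (1.75, SE 0.20) and DNAJB1 (1.21) were higher, and HSPB1 was lower (-1.56). DNAJB2 had 94.7, 98.3 and 75.4 CPM and HSPA2 55.9, 56.0 and 55.7 CPM in B-like cells, above every sum of every other class, which held for 1.37% of all features. DNAJA4, a J protein, DNAJC22 and HSPB8 had 0 UMIs in B-like cells. Of 9 dissociation-stress genes 3 were higher and 1 lower in this class, and of 15 cell cycle genes 0 were higher and 4 lower.

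In the T- or NK-like class 18 members were higher and 10 lower (30.5% and 18.2% of all features). Of the ER lumen members 0 were higher and 6 lower, or 0 and 5 without the plasma-like class, and of the cytosolic ones 12 were higher and 1 lower. HSP90AA1 had 1818, 2285 and 1996 CPM, above every sum of every other class (2.15% of all features), with a log2 fold change of 0.75 (SE 0.09). DNAJC9 (1.24) and DNAJB2 (1.07) were higher too, and HSPB1 (-1.29), HSP90B1 (-0.88) and DNAJC25 (-0.86) were lower. By cluster, HSP90AA1 stood at 4589 CPM in the ciliated-like cluster of the epithelial-like class, against 1972 to 3244 CPM in the T- or NK-like clusters. All 15 cell cycle genes were higher and all 9 dissociation-stress genes lower in the T- or NK-like class, and their part in the member values was not tested. The split over all members was 14 to 15 with DESeq2 and 24 to 7 with plain totals. For B it was 15 to 9 with plain totals.

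Monocyte- or macrophage-like cells had the highest average ER lumen sum after the plasma-like class. Of 50 members 15 were higher and 4 lower (30.4% and 11.5% of all features), a split that was 11 to 15 with DESeq2 and 12 to 9 with the dominant features left out of the totals. The ER lumen members were 5 higher and 0 lower of 8, with or without the plasma-like class, and 4 and 2 with DESeq2. HSP90B1 (0.66), HSPA5 (0.57), PDIA4 (0.77), PDIA6 (0.63) and DNAJC3 (0.45) were the 5. DNAJC13 (0.89), HSPH1 (0.83) and HSPD1 (0.83) had the largest increases among members called in this class and DNAJB2 (-1.05), HSPA2 (-0.75) and DNAJB4 (-0.61) the largest decreases. Of 9 dissociation-stress genes 7 were higher, with a median of 0.79, and of 15 cell cycle genes 6 were higher, with a median of 0.27, and their part in the member values was not tested. The monocyte- or macrophage-like class was not uniform. Its log2 ratio of ER lumen to cytosolic members was -0.89, -0.90 and -1.12 in the clusters led by P2RY13, TBXAS1 and ATP6V1G3. It was -1.32 in the cluster led by CCL17 and -1.84 in the one led by CFD and SORL1. The mix differed by animal, the P2RY13 cluster holding 1001, 983 and 77 cells. Dendritic-like cells had 7 higher and 6 lower (13.6% and 8.54% of all features), with 0 higher and 5 lower in the ER lumen, or 0 and 2 without the plasma-like class. Among members called, the largest changes in dendritic-like cells were in HSPH1 (0.94), DNAJC15 (0.81) and DNAJC5 (0.73), the vesicle J protein, which were higher, and PDIA4 (-1.62), HSP90B1 (-0.92) and DNAJC25 (-0.90), which were lower. With plain totals the dendritic-like split was 8 to 4. Stress genes were 4 higher and 1 lower in dendritic-like cells, and cycle genes 0 higher and 3 lower. The dendritic-like class is a single cluster of 283 cells, with CD207, CCL22 and CCR7 among its leading genes. A cluster of 844 cells led by CLEC9A and FLT3, both dendritic markers used here, was left unnamed and is not in it.

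Neutrophil-like cells, with 77, 25 and 61 cells, had 2 members higher and 19 lower (9.38% and 11.9% of all features), against a median of -0.55 over all tested features in this class. Of the 21 cytosolic members 0 were higher and 12 lower. DNAJC25, a J protein of the ER membrane, had 101, 61.5 and 89.1 CPM, above every sum of every other class (1.94% of all features), with a log2 fold change of 1.87 (SE 0.24), and DNAJC13 was higher too (0.71). DNAJB12 (-1.93), DNAJB2 (-1.81) and DNAJB4 (-1.64) had the largest decreases among members called, and HSPB6 and HSPB8 had 0 UMIs. With DESeq2 the split was 4 to 12 and with the dominant features left out of the totals 4 to 13. Of the stress genes 4 were higher and 1 lower, and of the cycle genes 4 were higher. The neutrophil-like class is a single cluster led by LTF and CRISP3. A cluster of 1284 cells led by CSF3R and CXCR2, both neutrophil markers used here, was left unnamed and is not in it. By cluster, HSP90AB1 stood at 1409 CPM there against 767 CPM in the neutrophil-like cluster. DNAJC25 stood at 94.7 against 73.3 CPM, and DNAJC4 at 220 against 230 CPM.

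Small heat shock proteins HSPB1 and HSPB8 were high in the fibroblast- or mural-like and endothelial-like classes. HSPB1 had 568, 393 and 611 CPM in the fibroblast- or mural-like and 371, 293 and 395 CPM in the endothelial-like class, with log2 fold changes of 2.32 (SE 0.20) and 1.66 (SE 0.23) against the other classes. HSPB8 had 33.0, 30.1 and 13.4 CPM in the fibroblast- or mural-like and 49.3, 29.7 and 16.9 CPM in the endothelial-like class, at least 29.8-fold and 36.1-fold higher than the B-like class at the limit of 3 counts. Among the clusters it was highest in the endothelial-like cluster led by FCN3 and VWF (65 CPM) and in a fibroblast- or mural-like cluster led by A2m and MFAP4 (43.6 CPM), against 4.94 CPM in the other fibroblast- or mural-like cluster. The unnamed cluster led by MSLN had 37.7 CPM of HSPB8 and 604 CPM of HSPB1. HSPB1 stood at 643 CPM in the FCN3 cluster and 186 CPM in the other endothelial-like cluster. In the fibroblast- or mural-like clusters HSPB1 stood at 601 and 554 CPM. The fibroblast- or mural-like class had 13 members higher and 12 lower (28.4% and 16.9% of all features), the largest decreases among members called being in DNAJC9 (-1.36), DNAJB2 (-0.98) and HSPH1 (-0.79). In it 3 ER lumen members were higher, HSP90B1 (0.47), PDIA6 (0.42) and DNAJC1 (0.67), and 6 without the plasma-like class. The endothelial-like class, with 53, 102 and 45 cells, had 8 higher and 16 lower (17.7% and 11.4% of all features), but 11 and 9 with DESeq2, 13 and 2 with the dominant features left out of the totals and 18 and 1 with plain totals, so most of its directions follow the scaling. DNAJC24 (-1.10), DNAJC11 (-1.08) and DNAJC9 (-0.90) had the largest decreases among members called in the endothelial-like class. The fibroblast- or mural-like split was 15 to 4 with plain totals. Of 9 dissociation-stress genes 8 were higher in the fibroblast- or mural-like class, with a median of 1.13, and of 15 cell cycle genes 15 were lower, with a median of -1.73. In the endothelial-like class 1 of the stress genes was higher and 3 lower, and 8 of the cycle genes were lower. Their part in the member values was not tested.

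HSPA4L and DNAJA4 were high in the epithelial-like class, unequally over its clusters. HSPA4L, an HSP110-family relative of HSPA4, had 47.6, 34.1 and 27.8 CPM and a log2 fold change of 3.00 (SE 0.23). DNAJA4 had 41.8, 39.5 and 23.2 CPM, at least 36.4-fold above the B-like class. Both were above every sum of every other class, which held for 5.73% of all features, but the class is not uniform. By cluster, with dominant features left out of the totals, DNAJA4 stood at 287 CPM in the ciliated-like cluster, which held 233 of the 250 UMIs. It stood at 3.83 CPM in the cluster led by SCGB3A2 and 1.22 CPM in the alveolar-like cluster. Both values were below the 13.1 and 7.41 CPM of the fibroblast- or mural-like clusters on that scale. HSPA4L stood at 148 CPM in the ciliated-like cluster, against 33.5 CPM in the SCGB3A2 cluster and 14.01 CPM in the alveolar-like cluster. DNAJC22 had 9.69, 16.3 and 9.58 CPM, at least 12.5-fold above B. The class had 10 members higher and 14 lower (28.6% and 15.9% of all features), with 13 and 12 under DESeq2, 13 and 9 with the dominant features left out of the totals and 21 and 5 with plain totals. HSPA2 (-1.67), HSPA13 (-1.30) and DNAJC15 (-0.84) had its largest decreases among members called. In the ER lumen 1 was higher and 4 lower, or 3 and 2 without the plasma-like class. By cluster, the log2 ratio of ER lumen to cytosolic members was -1.03 in the alveolar-like cluster led by SFTPC, -1.78 in the cluster led by SCGB3A2 and -2.09 in the ciliated-like cluster. Of the stress genes 5 were lower in the epithelial-like class, and of the cycle genes 6 were lower.

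The ALK-high fibroblast-like class was set against the other classes as well, with 22 members higher and 6 lower (35.4% and 18.8% of all features), and 19 to 12 with DESeq2 or 28 to 3 with plain totals. HSPA4L (0.93) was higher, and DNAJA4 (3.47, 7.25 and 3.18 CPM) and DNAJC22 (2.04, 6.19 and 2.75 CPM), for which no fold is given since the B-like class had 0 UMIs, were higher too. DNAJB2 (-1.10), HSPH1 (-0.77) and DNAJB1 (-0.68) had the largest decreases among members called. No member stood above every sum of every other class in the ALK-high fibroblast-like, monocyte- or macrophage-like, dendritic-like, fibroblast- or mural-like or endothelial-like class, where 1.97%, 2.09%, 1.01%, 3.81% and 3.03% of all features did. In the ER lumen HSP90B1 (0.51), DNAJC1 (0.90) and PDIA6 (0.36) were higher and DNAJC3 was lower (-0.42), or 3 and 0 without the plasma-like class. Of the 21 cytosolic members 12 were higher and 3 lower, with a median of 0.35 beside 0.17 over all tested features. The cytosolic split was 5 higher and 6 lower in the epithelial-like, 3 and 7 in the endothelial-like and 7 and 8 in the fibroblast- or mural-like class. For the monocyte- or macrophage-like class it was 4 and 3, and for the dendritic-like 3 and 0.

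**Figure D5:**
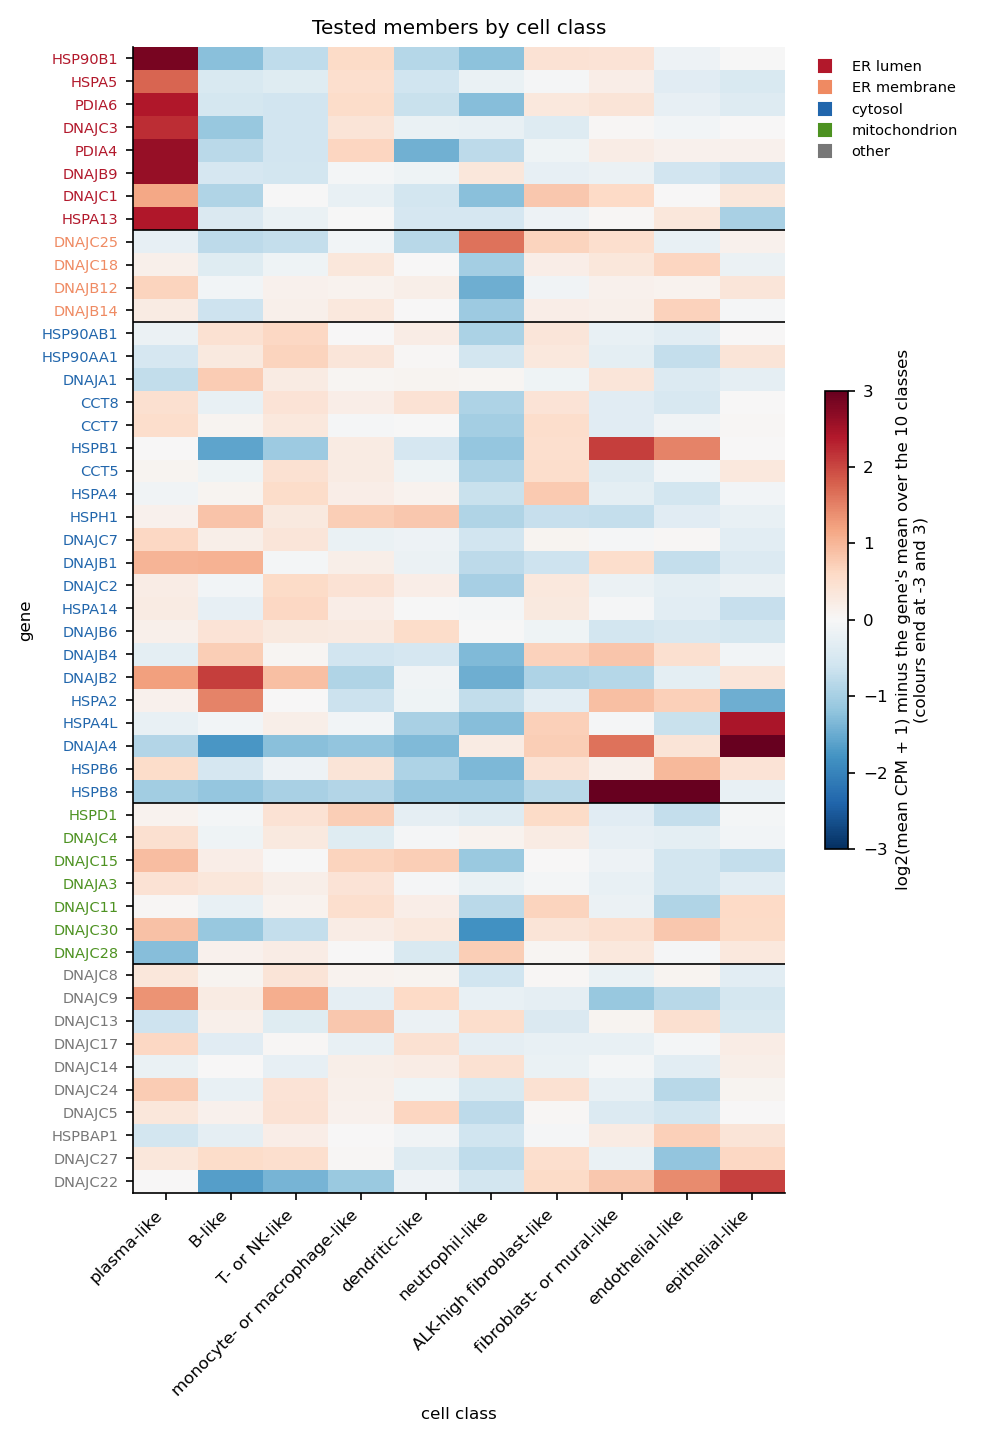
The 50 tested members (rows, grouped by compartment) in the 10 cell classes (columns), as log2(mean CPM + 1) minus the gene's mean over the classes, with colours that end at -3 and 3. The ER lumen block is red in the plasma-like column, HSPB1 and HSPB8 in the fibroblast- or mural-like and endothelial-like columns, and HSPA4L and DNAJA4 in the epithelial-like column, where the ciliated-like cluster supplies most of the DNAJA4 counts.

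Of the 61 members 11 did not pass the filter on low counts: DNAJB5, DNAJB8, DNAJC16, DNAJC6, HSPA12A, HSPA1L, HSPA6, HSPB2, HSPB3, HSPB7 and PDIA2. HSPA1L and HSPA6 have near-identical HSP70 relatives, so their reads may be shared and their counts are uncertain. HSPA8, HSPA1A, PDIA3, DNAJB11, DNAJC10, HSPA9 and HSPE1 were not analysed here.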

How the data were processed

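Raw UMI counts per gene and cell were deposited, 1 matrix per animal, not normalized. Counting used Cell Ranger, version 7.1.0 per the file headers and version 8.0.0 per the submitters' processing notes. The genome build and its annotation were not given in the sources used here. Members and gene lists were chosen with earlier results of these data known.

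Cells were kept with at least 1000 UMIs, 500 genes and a share under 20% for the 13 mitochondrial genes, which left 25044. The automatic Scrublet threshold marked 6 of them and so did not work, so cells scoring 0.2 or more, 445 in all (149, 124 and 172), were removed, leaving 24599 of 29500 barcodes. Clustering (scanpy 1.11.5, leidenalg 0.10.2) used 2000 variable genes without members or companion lists, 30 components, 20 neighbours and resolution 1, with no integration. Of 134 listed companion genes 95 were measured. A cluster was named where at least 3 markers were detected in 10% of its cells and its mean marker level lay 1 log2 unit above the median cluster, and left unnamed where another lineage scored comparably or led its top genes; this rule was set after seeing the clusters. A class needed 20 cells in each animal.

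Counts summed per class and animal were tested with edgeR 4.0.16 (R 4.3.3): TMM scaling, filterByExpr, and 1 quasi-likelihood fit over 30 sums with class and animal as terms. The replicate number pairs the sums because every class comes from the same 3 animals. The 12 comparisons set each class against the mean of the other 9, plasma-like against B-like, and ALK-high fibroblast-like against fibroblast- or mural-like, each with Benjamini-Hochberg adjustment over 12506 features. Because classes were defined from the same counts, these p-values are not calibrated. A member is called higher or lower at an adjusted p under 0.05. In the 2 plasma-like comparisons and the ALK-high one against fibroblasts, the text names main chaperones of each compartment and the 5 largest changes each way, and in the others 3 each way. Alternatives were DESeq2 1.42.0, other library totals, other cell filters, resolution 2, each animal left out, no animal block and no filter. Simulated counts with known changes, drawn from 1 mean profile for all classes, were also run through the fit. They held neither features that dominate a single class nor classes defined from the counts, so they do not check those 2 points.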

Additional observations from a re-analysis of the deposited data

How the results depend on the processing

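The plasma-like log2 ratio of ER lumen to cytosolic members ranged from 1.12 to 1.38 with each animal left out, and stayed the highest of all classes under every alternative tried. Without the largest member of each compartment it was 0.87, and in the monocyte- or macrophage-like, ALK-high fibroblast-like, fibroblast- or mural-like and epithelial-like classes -1.22, -1.57, -1.28 and -1.88. With each animal left out the ratios of the other classes ranged as follows: monocyte- or macrophage-like -1.08 to -0.93, fibroblast- or mural-like -1.11 to -0.93, endothelial-like -1.33 to -1.13, ALK-high fibroblast-like -1.45 to -1.31, neutrophil-like -1.82 to -1.16, epithelial-like -1.70 to -1.49, dendritic-like -2.24 to -2.05, T- or NK-like -2.53 to -2.33 and B-like -2.69 to -2.46.

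Counts of members called, with each animal left out, were 25 to 28 for the plasma-like class against the others (29 with all animals), 21 to 27 against B (29) and 15 to 21 for ALK-high against fibroblast- or mural-like (22). Against the other classes they were 18 to 25 for ALK-high (28), 13 to 21 for B-like (22), 18 to 25 for T- or NK-like (28), 6 to 12 for dendritic-like (13), 8 to 18 for endothelial-like (24), 15 to 23 for epithelial-like (24), 10 to 16 for neutrophil-like (21), 19 to 21 for fibroblast- or mural-like (25) and 16 to 18 for monocyte- or macrophage-like (19). Falls of over 1.5 times came without replicate 1 for ALK-high (18), B-like (13), dendritic-like (6), endothelial-like (9) and neutrophil-like (11), without replicate 2 for endothelial-like (8), epithelial-like (15) and T- or NK-like (18), and without replicate 3 for neutrophil-like (10), where fewer samples entered each fit. Without the replicate block the fibroblast- or mural-like count was 15, against 25 with it, and the plasma-like counts were 26 and 26; the block changed no other count by over 1.5 times. The dendritic-like count was 20 with members and lists kept in the clustering, and the endothelial-like count 15 with features above 1% left out of the totals; the cause was not tested.

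With plain library totals, an alternative added after seeing the data, values in the plasma-like class turned against the other classes to -1.58 for HSPH1, -0.61 for DNAJB1, -1.63 for CCT5, -1.11 for CCT7, -1.16 for CCT8 and -1.60 for HSPD1, and against B to -0.39 for HSPB1, -1.59 for CCT5, -1.33 for CCT7, -1.08 for CCT8 and -1.62 for HSPD1, as the median shift of that setting implies. HSPD1 was -0.31 against the other classes when only 6 sums, the plasma-like ones and those of all other cells pooled, were fitted. Of the other values for single genes 900 kept their direction and side of the threshold, 27 lost the call and 13 gained it. A mitochondrial limit of 10% left too few B-like and neutrophil-like cells for a value. Depth limits rest mainly on the B-like class of replicate 3 (245921 UMIs) and the neutrophil-like class of replicate 2 (124044 UMIs). Fits without the neutrophil-like or plasma-like class and the UMI range for fibroblast-like cells were also added after seeing the data.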

Other observations

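The 11 clusters left without a class were not part of any comparison, and their ER lumen to cytosol log2 ratios were all below 0. Clusters mostly of 1 library included the one led by SPP1, DMP1 and IBSP, with 219 of 239 cells from replicate 2 and a ratio of -1.34, the one led by ATP6V0D2 and MMP9, with 192 of 202 cells from replicate 2 and -1.44, and the one led by KRT14 and KRT17, with 199 of 202 cells from replicate 2 and -1.85. ALK stood at 48.5 CPM in the SPP1 cluster and 63.6 CPM in the KRT14 cluster. The cluster led by RETN and MMP8 (1361 cells) had -1.30, the one led by MSLN (162 cells) -1.29, the one led by CLEC9A and FLT3 (844 cells) -2.08 and the one led by CSF3R and CXCR2 (1284 cells) -1.88. These are values of single clusters, with no test.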
